A study of Mus musculus with 40 samples.

Results

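A set of 9 genes that were far lower in CREB-family knockout cells than in unmodified cells are described here across every library: Guf1, Gpam, Tysnd1, Cisd2, Wdr90, Tpt1, Tln2, 3830406C13Rik and 1810044D09Rik. They are 9 of 55414 genes in the table. They were chosen by their low values under the labels ATF1/CREB1-KO, ATF1/CREB1/CREM-KO or both, with no numeric threshold. Their levels under those labels are therefore a description with no test. The libraries labelled ATF1-KO were not used in the choice, and there the 9 genes were tested.

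The cells were mpkCCD, an immortalized line of the mouse kidney collecting duct. All groups were grown on permeable supports and received 0.1 nM dDAVP, a vasopressin analogue, for 72 h, so there was no arm without the hormone. The 22 libraries with values comprised 11 from unmodified control clones (genotype WT), 5 from ATF1-KO, 3 from ATF1/CREB1-KO and 3 from ATF1/CREB1/CREM-KO. Library numbers place control clones 1 to 5 beside ATF1-KO, control clones 6 to 8 beside ATF1/CREB1-KO and control clones 9 to 11 beside ATF1/CREB1/CREM-KO. Each knockout was compared with the control clones beside it, called own-run control clones, so the 3 comparisons share no sample. A run here means such a block of neighbouring library numbers, and the labels do not call it a batch. Nothing in the labels tells whether knockout replicates came from different clones, so a p-value measures the spread between these samples. A further 18 samples, from a rescue experiment in ATF1/CREB1/CREM-KO cells, were not analysed here.

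CREB1, ATF1 and CREM are related leucine-zipper transcription factors that bind, as dimers, a palindromic DNA element called the cAMP response element (CRE), or one arm of it. Vasopressin raises cAMP in collecting duct principal cells, and cAMP-dependent kinase phosphorylates these factors. CRE-containing promoters are found on many housekeeping and mitochondrial genes as well as on hormone-induced genes, and the factors can stand in for one another at such elements.

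Levels are in TPM, a unit which corrects for transcript length and scales each library to the same total. Depth is unknown from TPM; genes above 0 numbered from 17296 to 20703 in a library. As a check of the labels, the fitted level of Atf1 was 61.4% of control in ATF1-KO (adjusted p = 0.555, limma), 77.5% in ATF1/CREB1-KO (0.635) and 79.4% in ATF1/CREB1/CREM-KO (0.304), where replicate 2 was above every control clone. That of Creb1 was 67.0% in ATF1/CREB1-KO (adjusted p = 0.471) and 50.9% in ATF1/CREB1/CREM-KO (adjusted p = 0.00305), while Crem stood at 133% in ATF1/CREB1/CREM-KO (adjusted p = 0.116). An edit that ends a protein need not lower its transcript. Of 13 principal cell markers, 8 to 10 averaged 1 TPM or more in each group. One of them, Aqp2, which encodes the vasopressin-regulated water channel, averaged 15.5 TPM in ATF1/CREB1/CREM-KO beside 1516 TPM in its control clones (adjusted p = 0.00086, limma). The sum of all 13 was 3422 to 3598 TPM in ATF1/CREB1/CREM-KO and 3077 to 5202 TPM in control clones 9 to 11. The markers of thick ascending limb and podocytes stayed under 1 TPM in all libraries. Of the markers of other cell types, Atp6v1b1 and Aqp6 (2 of 6 for intercalated cells), Lrp2 (1 of 4 for proximal tubule) and Cd68 averaged 1 TPM or more in the groups. The leukocyte marker Ptprc was above 0 in every library and reached 3.54 TPM, averaging 1 TPM or more in ATF1/CREB1-KO, and the fibroblast marker Col1a1 reached 1.05 TPM. Foxi1, Slc34a1 and Kdr were highest at 0.05, 0.07 and 0.03 TPM. The 85 ribosomal protein genes took 7.19% to 15.3% of TPM in control clones 6 to 8 and ATF1/CREB1-KO, against 2.67% to 4.10% in the other 16 libraries.

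The sequences around the start sites were searched for the CRE in those of the 9 genes that had a promoter window. RefSeq promoter windows (GRCm38.p6, from 250 bases before to 50 bases after each annotated start) matched 7 of the 9 genes, in 10 windows; Guf1 and Tln2 did not match. The full CRE searched was TGACGTCA, which reads the same on both strands. The CRE core was TGACG or its reverse complement CGTCA, and every full CRE also holds a core. The following lines give 30 bases around the match nearest to the start of each gene, or its sole match, 5′ to 3′ on the gene's strand, with the matched letters in capitals. The Gpam stretch opens inside the farther of its matches.

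3830406C13Rik (chr14:12284150-12284179, plus strand): gggactctgacTGACGTCAggagcgtaaag

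Tpt1 (chr14:75845226-75845255, plus strand): ccgccctgcgttcaCGTCAccgcTGACGac

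Cisd2 (chr3:135423469-135423498, minus strand): tccgcagcgcgcaCGTCActcgccgcgcgc

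Gpam, second annotated start (chr19:55099478-55099507, minus strand): GTCActgccgcgcgccgcccgCGTCAtcgc

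Tysnd1, second annotated start (chr10:61695268-61695297, plus strand): gtcggtttccctgTGACGcttcacgtctgt

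Longer stretches, the 160 bases that end at the start, are given for Wdr90 and for 1810044D09Rik, where no exon of a coding transcript lies in them. The stretch of 1810044D09Rik overlaps exons of the noncoding 4930471M09Rik on the opposite strand.

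Wdr90 (chr17:25861516-25861675, minus strand): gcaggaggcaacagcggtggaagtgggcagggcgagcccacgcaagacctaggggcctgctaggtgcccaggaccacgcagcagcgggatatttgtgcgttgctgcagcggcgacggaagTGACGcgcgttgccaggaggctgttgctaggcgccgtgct

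1810044D09Rik (chr6:91440827-91440986, plus strand): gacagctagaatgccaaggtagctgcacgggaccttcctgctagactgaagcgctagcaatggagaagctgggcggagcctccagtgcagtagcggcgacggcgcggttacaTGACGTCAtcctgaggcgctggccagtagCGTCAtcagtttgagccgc

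The full CRE was found in 2 of the 7 genes, 3830406C13Rik, 42 bases before its first annotated start, and 1810044D09Rik, 48 bases before its start. Over all genes with a window it was found in 2.03% of 27025, and over the 9495 of them with a mean of at least 1 TPM in 3.70%. A core was found in 7 of the 7, against 6228 of the 27025 genes overall and 36.5% of those at 1 TPM or more. Its first base lay 52 bases before the start in Cisd2, 40 in Wdr90, 16 and 7 in Tpt1, and 31 and 9 at the second start of Gpam, which lies within the gene. In Tysnd1 it lay 233 bases before the second start, and neither the first window of Tysnd1 nor that of Gpam held a match. A match is a run of letters and not a measured binding site.

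**Figure D1:**
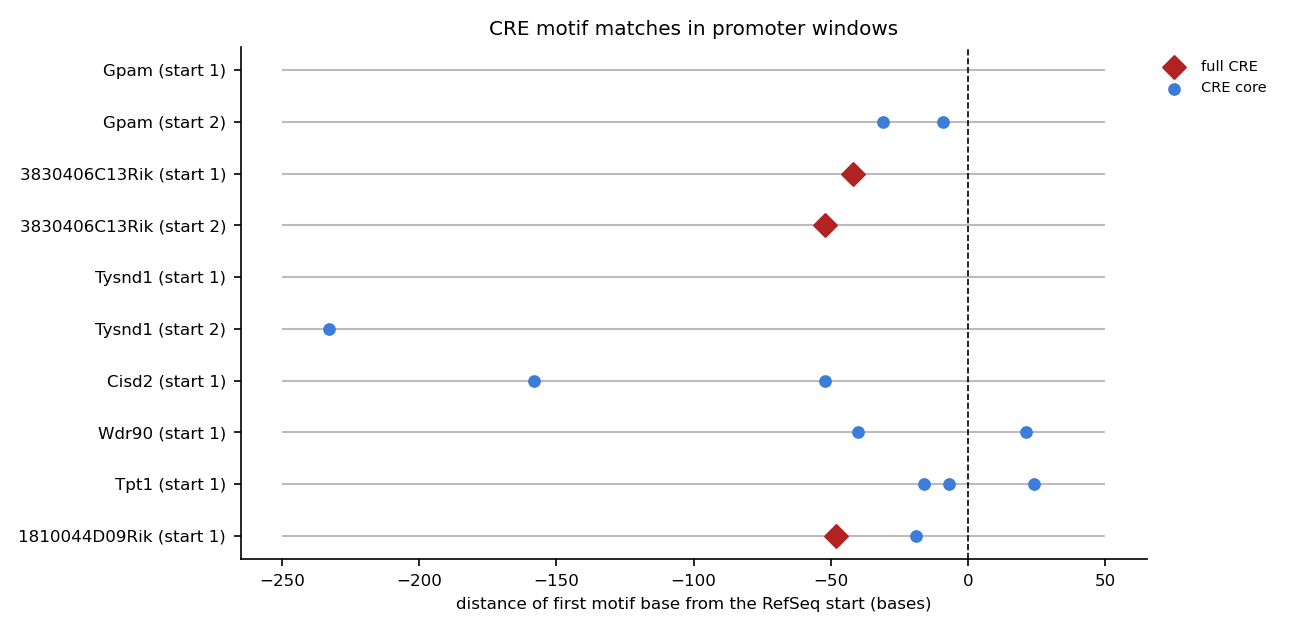
Position of CRE matches in the RefSeq promoter windows of the 7 genes with an entry, as the distance in bases of the first motif letter from each annotated start (dashed line at 0). Diamonds are the full CRE and circles the CRE core; the full CRE appears at 42 and 48 bases before the start in 3830406C13Rik and 1810044D09Rik, and the nearest core of the other genes lies within 60 bases of the start except in Tysnd1.

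In the libraries labelled ATF1-KO, none of the 9 genes was called, and their levels averaged 66.4% (Tln2) to 115% (Tpt1) of control clones 1 to 5. Fitted log2 changes of log2(TPM + 1) ran from -0.49 for Tln2 to 0.24 for Tpt1, 6 of the 9 below 0, with limma adjusted p-values from 0.658 to 0.969. At an unadjusted p under 0.05, 0 of the 9 passed, and 1014 of all 13318 genes tested did. The background was the same: 0 of 13318 genes were called (0%). No gene of the 9 had all 5 knockout libraries below all 5 control clones, a pattern seen in 0.736% of genes.

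Under ATF1/CREB1-KO, 8 of the 9 genes had all 3 knockout libraries below all 3 control clones, where 12.4% of 12579 genes did. Under ATF1/CREB1/CREM-KO all 9 did, where 20.2% of 13258 genes did. The choice of the genes fixes these counts. Over the whole table, 9 genes (0.0715%) were called in ATF1/CREB1-KO, 4 higher and 5 lower. In ATF1/CREB1/CREM-KO 1216 (9.17%) were called, 698 lower (5.26%) and 518 higher (3.91%). The median log2 change of the 9 genes was -0.08, -1.86 and -2.30 under the 3 labels in the same order, beside -0.00, -0.03 and -0.05 over all genes tested. Whether fewer cells carried a transcript or each cell carried less of it cannot be told apart in bulk RNA.

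**Figure D2:**
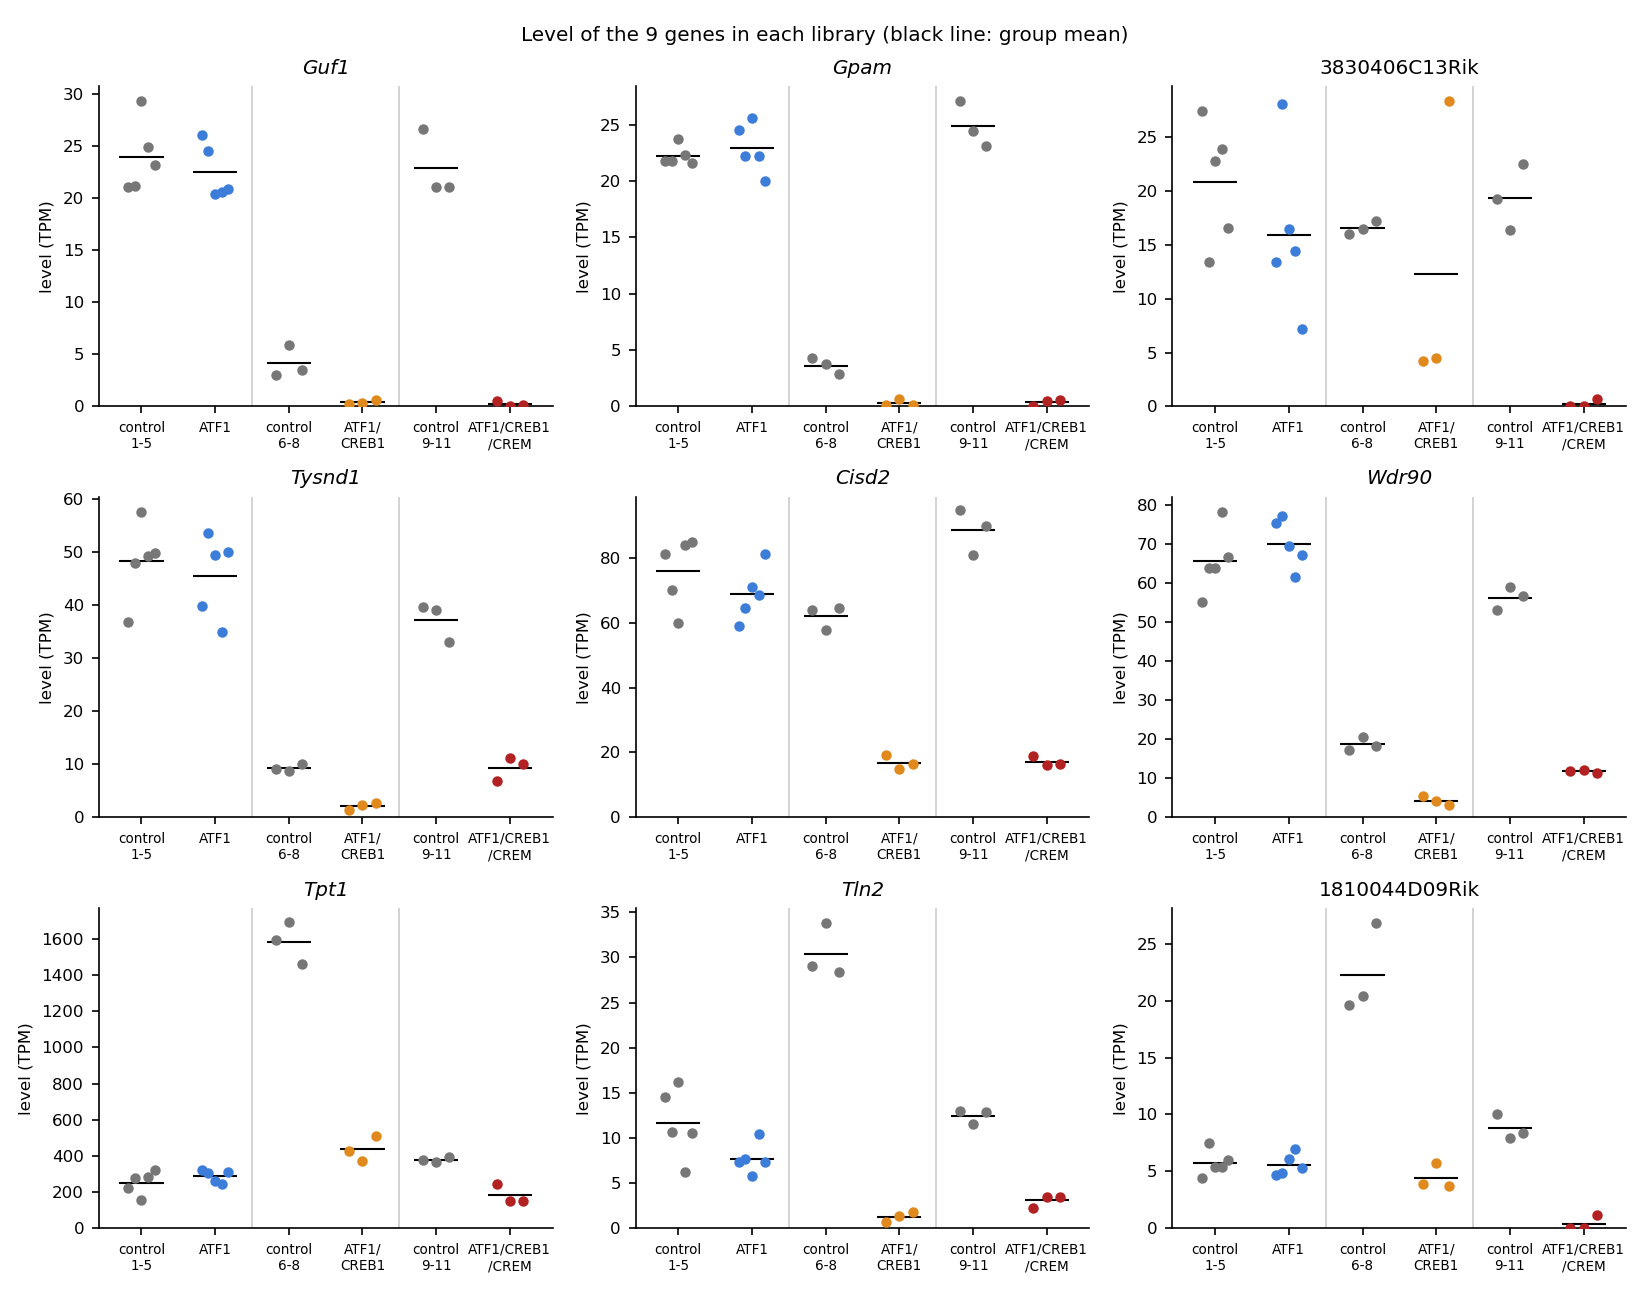
Level of each of the 9 genes in TPM (linear axes from 0) in every library, by group: control clones in grey, ATF1-KO in blue, ATF1/CREB1-KO in orange, ATF1/CREB1/CREM-KO in red, with the group mean as a black line. Vertical lines separate the 3 runs; Guf1 and Gpam lie near 0 under both compound knockout labels, and control clones 6 to 8 stand apart from the other control clones for 7 of the genes.

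Guf1 and Gpam, whose proteins work in mitochondria, were near 0 under both compound knockout labels. Guf1 encodes a mitochondrial GTPase related to bacterial elongation factor 4, which acts on translating mitochondrial ribosomes. Its level was 21.07, 21.15, 29.35, 24.95 and 23.21 TPM in control clones 1 to 5 and 26.15, 24.54, 20.44, 20.66 and 20.89 TPM in ATF1-KO. It was 3.03, 5.87 and 3.47 TPM in control clones 6 to 8 and 0.20, 0.32 and 0.59 TPM in ATF1/CREB1-KO. Control clones 9 to 11 had 26.68, 21.09 and 21.06 TPM, and ATF1/CREB1/CREM-KO had 0.55, 0.02 and 0.12 TPM. In ATF1-KO 3 of the 5 libraries lay just below the lowest control clone and the other two among the controls, while every library of the other 2 labels was under 1 TPM and apart from its controls. What was left averaged 8.97% of control in ATF1/CREB1-KO and 1.00% in ATF1/CREB1/CREM-KO.

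Gpam encodes the mitochondrial glycerol-3-phosphate acyltransferase that performs the first committed step of triglyceride and phospholipid synthesis. Its libraries had 21.63 to 23.77 TPM in control clones 1 to 5 and 20.01 to 25.63 TPM in ATF1-KO. Control clones 6 to 8 had 4.26, 3.73 and 2.87 TPM against 0.12, 0.66 and 0.15 TPM in ATF1/CREB1-KO, or 8.56% of control. Control clones 9 to 11 had 27.08, 24.48 and 23.09 TPM against 0.07, 0.51 and 0.54 TPM in ATF1/CREB1/CREM-KO, an average of 0.373 TPM beside 24.9 TPM. As with Guf1, the groups were apart under both labels and the knockout libraries were all under 1 TPM. For both genes the starting level of control clones 6 to 8 was itself low, so the percentages in ATF1/CREB1-KO rest on a narrow range. The log2 change of log2(TPM + 1) in ATF1/CREB1-KO was -1.87 for Guf1 and -1.83 for Gpam, values that this scale understates at low levels: with a pseudocount of 0.1 TPM they were -3.19 and -3.40.

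Tysnd1, Cisd2 and Wdr90, genes of peroxisomes, the endoplasmic reticulum and centrioles, kept between 19.3% and 27.1% of their control level on average under both labels. Tysnd1 encodes the peroxisomal protease that trims targeting signals from imported enzymes. It had 9.12, 8.80 and 10.05 TPM in control clones 6 to 8 and 1.32, 2.30 and 2.62 TPM in ATF1/CREB1-KO. It had 39.69, 39.05 and 33.16 TPM in control clones 9 to 11 and 6.79, 11.19 and 10.00 TPM in ATF1/CREB1/CREM-KO. The average was 22.3% of control in ATF1/CREB1-KO and 9.33 TPM beside 37.3 TPM in ATF1/CREB1/CREM-KO, and each set of knockout libraries lay wholly below its controls. In ATF1-KO its libraries ran from 35.00 to 53.66 TPM, 1 of them below the 36.94 to 57.63 TPM of control clones 1 to 5.

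Cisd2 encodes an iron-sulfur protein of the endoplasmic reticulum and mitochondrial outer membrane, mutated in a form of Wolfram syndrome. Control clones 6 to 8 had 63.95, 57.74 and 64.39 TPM and ATF1/CREB1-KO 19.06, 14.93 and 16.41 TPM. Control clones 9 to 11 had 94.74, 81.00 and 89.73 TPM and ATF1/CREB1/CREM-KO 18.96, 16.04 and 16.36 TPM. The remaining levels were 27.1% and 19.3% of control. The fractions of the 2 labels did not overlap (24.1% to 30.7% and 18.1% to 21.4%), though the libraries of both labels lay in nearly the same TPM range. That comparison crosses runs and cannot rank the 2 labels. The share of all genes without such overlap was not counted. Cisd2 and 3830406C13Rik were the genes of the 9 whose level in control clones 6 to 8 overlapped that of the other 8 control clones. ATF1-KO had 59.07 to 81.26 TPM against 59.94 to 84.98 TPM in control clones 1 to 5.

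Wdr90 encodes a WD-repeat protein of the centriole wall. Its 3 libraries of ATF1/CREB1-KO had 5.34, 4.09 and 3.05 TPM beside 17.14, 20.71 and 18.25 TPM in control clones 6 to 8. Its 3 libraries of ATF1/CREB1/CREM-KO had 11.91, 12.17 and 11.26 TPM beside 53.21, 58.95 and 56.82 TPM in control clones 9 to 11. These are 22.2% and 20.9% of control, with no overlap under either label and the tightest spread of the 9 genes in ATF1/CREB1/CREM-KO, from 20.0% to 21.6%. In ATF1-KO it ran from 61.56 to 77.34 TPM, inside the 55.24 to 78.34 TPM of control clones 1 to 5. Wdr90 overlaps Rhot2 on the same strand, so reads there could be split between them; Rhot2 averaged 25.7 TPM in control clones 9 to 11 and 27.4 TPM in ATF1/CREB1/CREM-KO (adjusted p = 0.780, limma).

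Tln2 and Tpt1 kept a smaller fraction of their control level in ATF1/CREB1-KO than in ATF1/CREB1/CREM-KO. Tln2 encodes talin 2, which links integrins to actin. It had 29.05, 33.81 and 28.42 TPM in control clones 6 to 8 and 0.66, 1.35 and 1.85 TPM in ATF1/CREB1-KO, or 4.23% of control. It had 12.99, 11.57 and 12.83 TPM in control clones 9 to 11 and 2.28, 3.48 and 3.49 TPM in ATF1/CREB1/CREM-KO, or 24.7%. The knockout libraries were apart from their controls under both labels. Control clones 6 to 8 held 2.55 times the Tln2 of the other 8 control clones, and the part of this in the gap between the percentages was not tested. By TPM the 2 knockout groups were still apart, with ATF1/CREB1-KO lower. That comparison crosses runs, and the median gene in control clones 6 to 8 was at 0.325 times the other 8 control clones. It therefore cannot rank the 2 labels. In ATF1-KO, Tln2 had 7.37, 7.63, 5.82, 10.45 and 7.36 TPM against 14.51, 10.71, 16.21, 6.19 and 10.52 TPM in control clones 1 to 5. This was the lowest average of the 9 genes in ATF1-KO, but clone 4, at 6.19 TPM, lay among the knockout libraries, and the change of -0.49 ± 0.22 (SE) did not pass (adjusted p = 0.658, limma).

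Tpt1 encodes translationally controlled tumor protein, an abundant growth-related protein whose message carries a terminal oligopyrimidine tract, as ribosomal protein messages do. Its level was 1596, 1693 and 1459 TPM in control clones 6 to 8 and 429.5, 374.6 and 508.4 TPM in ATF1/CREB1-KO. It was 378.5, 365.8 and 395.4 TPM in control clones 9 to 11 and 243.0, 150.5 and 152.2 TPM in ATF1/CREB1/CREM-KO. The groups were apart within each run, at 27.6% and 47.9% of control, yet the ATF1/CREB1-KO libraries had about the level of control clones 9 to 11. Against all 11 control clones the log2 change in ATF1/CREB1-KO was -0.08 in place of -1.86, because control clones 6 to 8 held 5.28 times the Tpt1 of the other 8. The ribosomal protein share moved with Tpt1 across runs, and was 14.4% to 15.3% in control clones 6 to 8. In ATF1/CREB1-KO replicates 1 to 3 it was 13.2%, 12.7% and 7.19%, so replicate 3 had the lowest share and the highest Tpt1. The part of this share in the result was not tested. The table lists Tpt1 pseudogenes, so the Tpt1 level is uncertain: Tpt1-ps3 averaged 42.9 TPM in control clones 6 to 8 and 15.9 TPM in ATF1/CREB1-KO, and 11.1 TPM in control clones 9 to 11 and 8.23 TPM in ATF1/CREB1/CREM-KO.

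The pair of genes known only by RIKEN names were listed at 0 in ATF1/CREB1/CREM-KO replicates 1 and 2. Of the 7 genes with a promoter window, they are also the pair with a full CRE. Gpam, with no full CRE in its windows, averaged 1.50% of control in ATF1/CREB1/CREM-KO, beside 4.52% for 1810044D09Rik. That 4.52% rests on replicate 3, at 13.6%, while replicates 1 and 2, at 0, lay below every Gpam library (0.281% to 2.17%). A link between the full CRE and the level was not tested. The protein-coding 3830406C13Rik had 16.02, 16.45 and 17.20 TPM in control clones 6 to 8 and 4.21, 4.47 and 28.37 TPM in ATF1/CREB1-KO. It had 19.31, 16.38 and 22.53 TPM in control clones 9 to 11 and 0, 0 and 0.68 TPM in ATF1/CREB1/CREM-KO. Replicate 3 of ATF1/CREB1-KO was above every control clone while replicates 1 and 2 were at 25.4% and 27.0% of control. The log2 change in ATF1/CREB1-KO was -0.90 ± 0.63 (SE) with that library and -1.72 without it. That library also had the lowest ribosomal protein share of its run, 7.19%. In ATF1-KO 3830406C13Rik ranged from 7.16 to 28.16 TPM, past the 13.38 to 27.50 TPM of control clones 1 to 5 at both ends, with 1 library below all of them and 1 above.

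The long intergenic RNA 1810044D09Rik had 19.60, 20.44 and 26.80 TPM in control clones 6 to 8 and 3.88, 5.73 and 3.73 TPM in ATF1/CREB1-KO, or 20.0% of control. It had 10.05, 7.91 and 8.36 TPM in control clones 9 to 11 and 0, 0 and 1.19 TPM in ATF1/CREB1/CREM-KO. All knockout libraries of both labels were below their controls. Control clones 6 to 8 were 3.24 times as high as the other 8 control clones, and against all 11 the log2 change in ATF1/CREB1-KO was -0.95 in place of -2.10. ATF1-KO, at 4.67 to 6.99 TPM, lay within the 4.46 to 7.49 TPM of control clones 1 to 5.

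**Figure D3:**
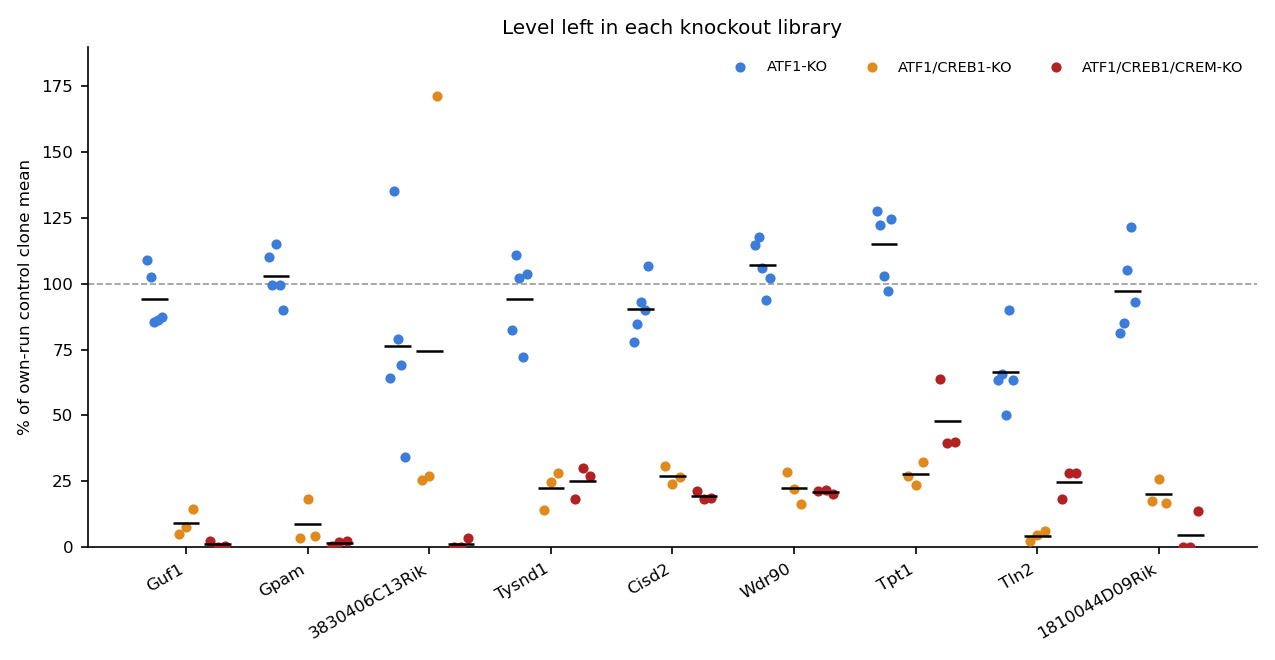
Level of each gene in every knockout library as a percentage of the mean of its own-run control clones (linear axis, dashed line at 100%), with group means as black lines. ATF1-KO libraries lie between 34.4% and 135%; in ATF1/CREB1-KO the means lie at or below 27.6% except for 3830406C13Rik, whose replicate 3 lies at 171%, and in ATF1/CREB1/CREM-KO the highest mean is that of Tpt1, 47.9%.

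Ordered by what was left in ATF1/CREB1-KO, Tln2 came first, followed by Gpam and Guf1, then 1810044D09Rik, Wdr90, Tysnd1, Cisd2 and Tpt1, with 3830406C13Rik last. That last place rests on replicate 3, at 171% of control; replicates 1 and 2, at 25.4% and 27.0%, lay among the 5 genes before it. Gpam (3.31% to 18.2% per library) and Guf1 (4.85% to 14.3%) did not differ beyond their spread. The 5 genes from 1810044D09Rik to Tpt1 overlapped too, with means from 20.0% to 27.6%. In ATF1/CREB1/CREM-KO, Guf1, 3830406C13Rik and Gpam were lowest, every library of theirs under 1 TPM, and 1810044D09Rik followed. The place of 1810044D09Rik rests on replicate 3, at 13.6% of control, with replicates 1 and 2 listed at 0. Cisd2, Wdr90, Tln2 and Tysnd1 formed a middle group, at 19.3%, 20.9%, 24.7% and 9.33 of 37.3 TPM, in which neighbours overlapped, and Tpt1 was highest. Guf1 and Gpam were thus near the bottom under both labels, whereas Tln2 stood first under one and seventh under the other. These orders compare fractions of different control levels, and the shift of control clones 6 to 8 touches the order in ATF1/CREB1-KO.

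In unmodified cells the level of 7 of the 9 genes differed by run. The share of all genes that did so without overlap was not counted, so this is not shown to be particular to the 9. Guf1, Gpam, Tysnd1 and Wdr90 in control clones 6 to 8 were 0.175, 0.156, 0.211 and 0.301 times the mean of the other 8 control clones, with no overlap. Tpt1, Tln2 and 1810044D09Rik were higher there, also without overlap. Over 11943 genes the median ratio was 0.325, and 80.0% were lower in control clones 6 to 8. The lower 4 genes thus lie near or below the ratio of the typical gene. The labels give no cause for it, and no test was made.

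The other genes of the pathways in which the 9 take part were examined with limma in all 3 comparisons; 9 lists were chosen with earlier results of these data known, and the members themselves were left out of them. In ATF1-KO 0 of 175 listed genes were called, with 19 at an unadjusted p under 0.05, and in ATF1/CREB1-KO 0 of 173, with 18 at that p. Over all genes 1014 of 13318 and 1199 of 12579 had such a p in these comparisons. In ATF1/CREB1/CREM-KO 15 of 175 were called, beside 9.17% of all genes. In ATF1/CREB1/CREM-KO, 0 of 22 glycerolipid synthesis enzymes were called around Gpam, although 14 had an unadjusted p under 0.05, as did 3582 of all 13258 genes, and their median log2 change was 0.22. Around Cisd2, 0 of 9 genes of NEET proteins and endoplasmic reticulum calcium were called, with 2 at an unadjusted p under 0.05. Around Wdr90, 0 of 20 centriole genes were called, with 3 at that p. Around Guf1, 2 of 14 mitochondrial translation factors rose, Mrrf, the ribosome recycling factor (log2 change 0.90), and Lrpprc, which stabilizes mitochondrial messages (0.47). Of 21 iron-sulfur assembly genes 1 rose, the scaffold Iscu (0.59).

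Around Tysnd1, 28 genes of peroxisome biogenesis and beta-oxidation were tested, of which 2 fell and 1 rose in ATF1/CREB1/CREM-KO. Over all genes 9.17% were called in that comparison, 5.26% lower and 3.91% higher. The counts for this list and for the integrin adaptors below lie near that share. Pex7, the import receptor for one class of the signals that the Tysnd1 protease trims, averaged 49.8 TPM in control clones 9 to 11 and 21.5 TPM in the knockout (log2 change -1.18 ± 0.13 SE, adjusted p = 0.00539, limma). Acox3, a peroxisomal acyl-CoA oxidase, fell by 1.15 on the log2 scale, and the protease gene Lonp2 rose by 0.33. Around Tln2, 2 of 21 integrin adaptors fell: Vcl, which encodes the talin-binding protein vinculin (-0.91), and Rap1b, a small GTPase that acts in talin recruitment (-0.60). Around Tpt1, 3 of 19 translation factors with the same kind of message fell, Eif3k (-0.53), Eef1b2 (-0.36) and Naca (-0.34), and the list's median was -0.25 beside -0.05 over all genes. Of 21 cAMP-responsive CREB targets 4 fell: Pde4b, a cAMP phosphodiesterase, from 30.9 to 0.447 TPM, Nr4a1 (-1.85), Id1 (-0.93) and Fos (-0.87).

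These calls in ATF1/CREB1/CREM-KO depended on single libraries and on the control clones used. Pde4b, Nr4a1 and Pex7 kept their call when each of the 6 libraries was left out in turn. Without control clone 9, those 3 were kept of 18 called genes (the 15 above, Htra1, and the neighbours Slc25a30 and Ice2), and the adjusted p-values of the other 15 ran from 0.0524 to 0.177. Without control clone 11, 4 were kept (others 0.051 to 0.152), and without control clone 10, 10 were kept (others 0.0605 to 0.12). Without knockout replicate 2 or replicate 3, 9 were kept (others 0.0554 to 0.159 and 0.0576 to 0.16), and without replicate 1 all 18 were. Against all 11 control clones Id1 and Pde4b were kept, and the other 16 had adjusted p-values from 0.236 to 0.951, Nr4a1 and Pex7 among them. Without the filter on low values 14 were kept, with run as a covariate 14, and with median-ratio scaling 16.

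Of 10 relatives of the 9 genes by protein family, 1 was called in ATF1/CREB1/CREM-KO, near the share over all genes, 9.17%. Gpat3 and Gpat4 encode acyltransferases that do the step of Gpam in the endoplasmic reticulum. In ATF1/CREB1/CREM-KO they averaged 10.2 and 125 TPM beside 6.39 and 107 TPM in controls (adjusted p = 0.168 and 0.132, limma). Cisd1, the mitochondrial NEET protein, averaged 314 TPM beside 263 TPM (adjusted p = 0.0817), and Cisd3 71.9 beside 63.4 TPM (0.289). Tln1, the widely expressed talin, averaged 57.9 beside 63.5 TPM (0.519), and it was 38.3 beside 44.7 TPM in ATF1/CREB1-KO (0.735). Gfm1, Gfm2 and Efl1, translation GTPases like Guf1, changed by 0.05, -0.12 and -0.17 on the log2 scale with adjusted p-values of 0.816, 0.539 and 0.509. The called gene was Htra1, a secreted serine protease listed with Tysnd1, which fell from 20.0 to 4.75 TPM (log2 change -1.92, adjusted p = 0.00827). Leaving out control clone 9 gave it an adjusted p of 0.0535, and leaving out control clone 11 gave 0.0510. Against all 11 control clones it was 0.301. None of the 10 relatives passed in the other comparisons: 0 were called in ATF1-KO and 0 in ATF1/CREB1-KO, with 2 at an unadjusted p under 0.05 in each, beside 1014 of 13318 and 1199 of 12579 genes overall.

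**Figure D4:**
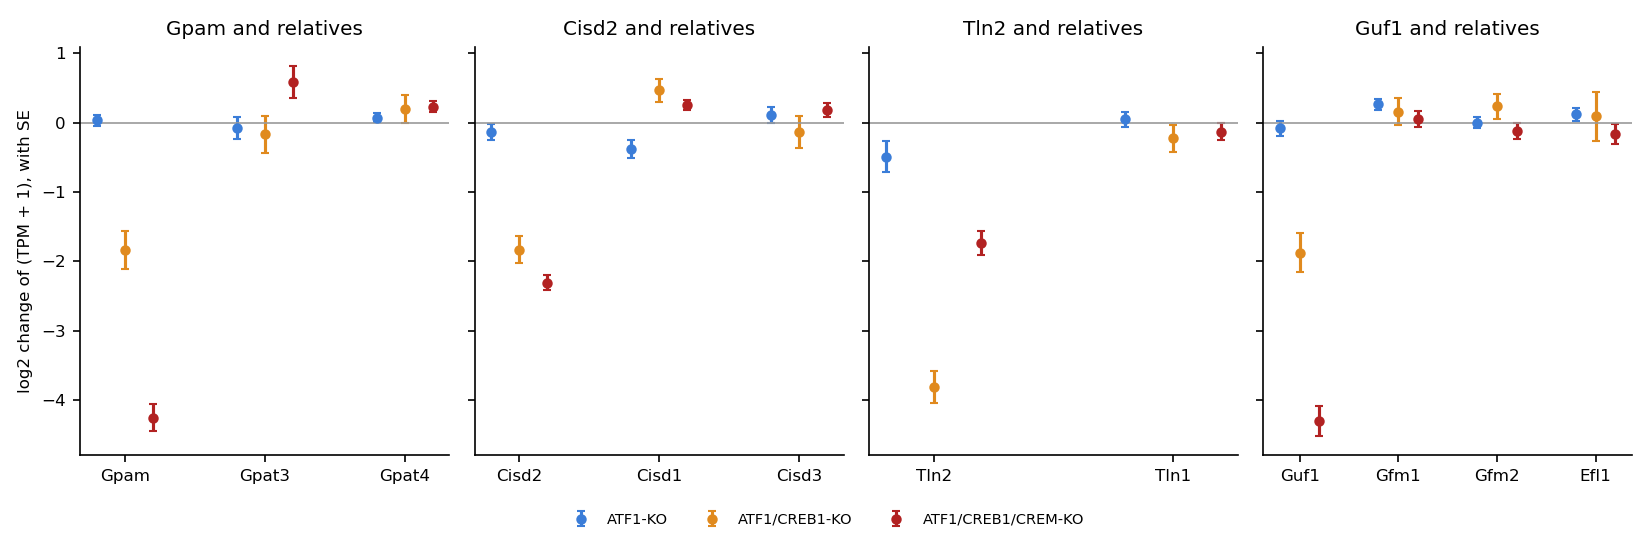
Log2 change of log2(TPM + 1) against own-run control clones, with SE bars, for Gpam, Cisd2, Tln2 and Guf1 and their sequence relatives (ATF1-KO blue, ATF1/CREB1-KO orange, ATF1/CREB1/CREM-KO red). The 4 genes lie between -1.73 and -4.30 under the compound labels, and the lowest relative shown is Cisd1 in ATF1-KO, at -0.38. Relatives of Tysnd1 are not shown. Among them Htra1, the relative that was called, was at -1.92 in ATF1/CREB1/CREM-KO, and Htra2 was at -0.09.

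The nearest expressed genes along the chromosome were examined beside the 9. Some were far off: those of 3830406C13Rik lay 927 to 3618 kb away, and so do not show its immediate surroundings. The annotation (GENCODE M21, GRCm38) places the 9 on chromosomes 5, 19, 14, 10, 3, 17, 9 and 6, with 3830406C13Rik and Tpt1 both on 14. Of the 3 nearest genes on each side at 1 TPM or more, 0 of 54 were called in ATF1-KO (0% of all genes), 0 of 45 in ATF1/CREB1-KO (0.0715%) and 2 of 52 in ATF1/CREB1/CREM-KO (9.17%), with no larger share than over all genes. These 2 were Slc25a30 near Tpt1 (-0.99, adjusted p = 0.0140, limma) and Ice2 near Tln2 (-1.28, adjusted p = 0.0114). Both lost the call without control clone 9 (0.0741 and 0.0686) and without control clone 11 (0.0697 and 0.0630), and Slc25a30 also without knockout replicate 2 (0.0554). Gnpda2, which overlaps Guf1 on the opposite strand, averaged 15.4 TPM in control clones 9 to 11 and 23.2 TPM in ATF1/CREB1/CREM-KO (adjusted p = 0.113), so the low Guf1 was not accompanied by a low Gnpda2.

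Tpt1 stood least clear of its surroundings. In ATF1/CREB1/CREM-KO its log2 change was -1.10, and its 4 tested neighbours had -0.99 (Slc25a30), -0.59 (Cog3), -0.46 (Gtf2f2) and -1.21 (Gpalpp1). The median over 408 expressed genes of chromosome 14 was -0.56 and -0.54 in replicates 2 and 3, and -0.06 in replicate 1. In ATF1/CREB1-KO it was -0.55 in replicate 2, beside -0.07 and -0.16 in replicates 1 and 3 over 384 genes. In the libraries where chromosome 14 was near the median of all genes, Tpt1 was at 64.0% of control in ATF1/CREB1/CREM-KO replicate 1 and at 27.1% in ATF1/CREB1-KO replicate 1. In the same ATF1/CREB1/CREM-KO replicate 1, 3830406C13Rik was listed at 0. The part of the chromosome 14 shift in the values of Tpt1 was not tested.

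**Figure D5:**
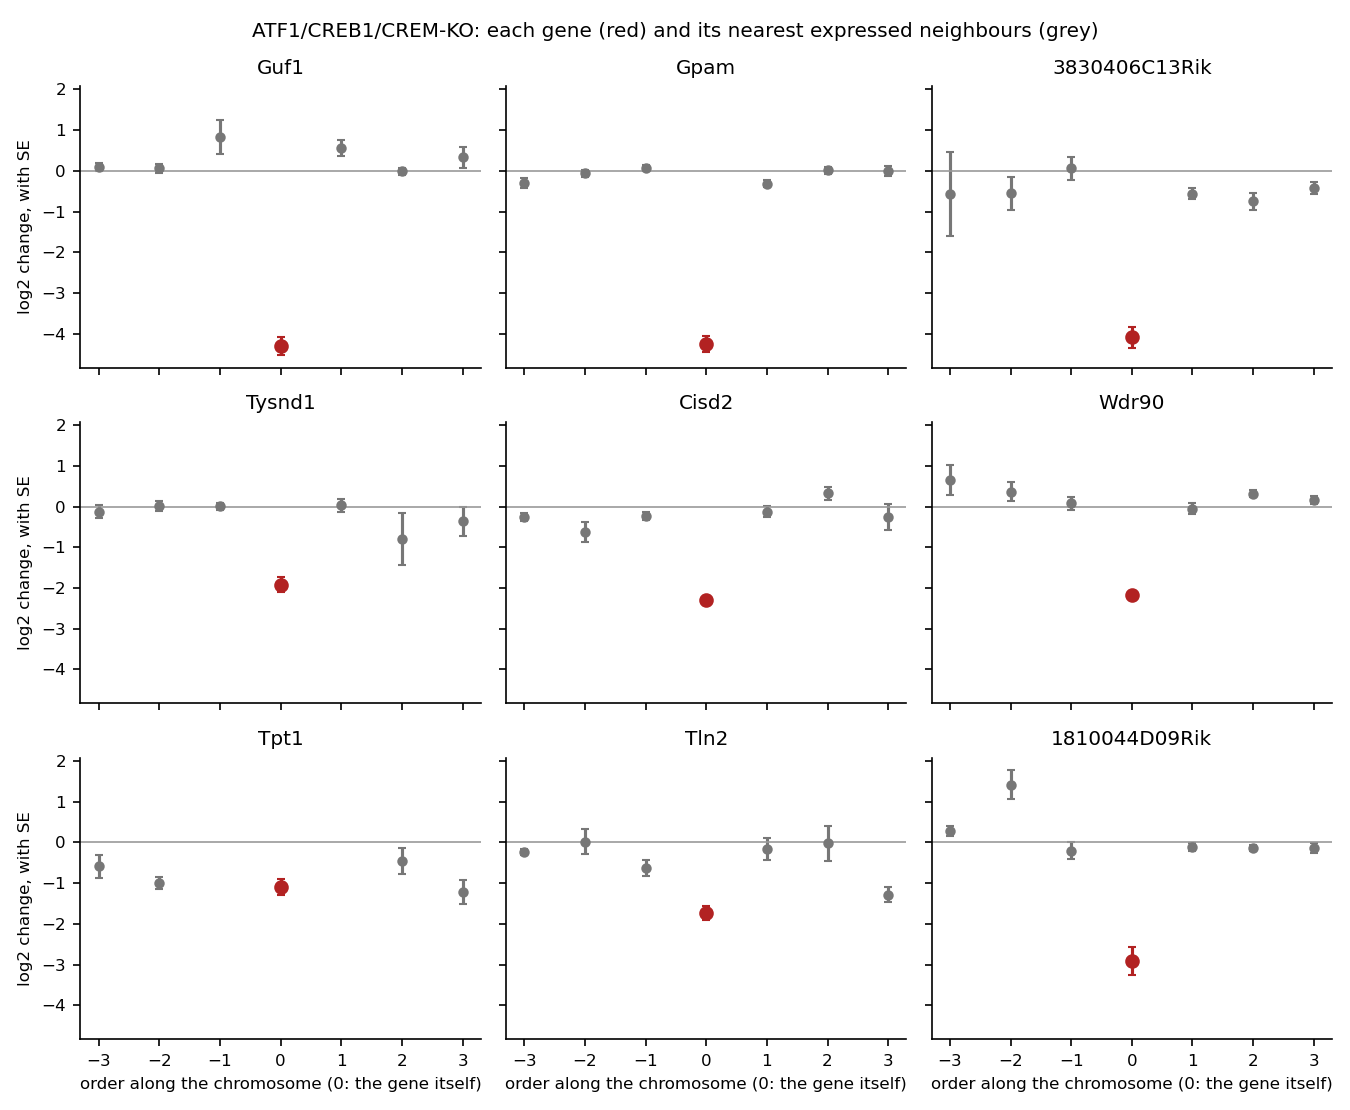
Log2 change of log2(TPM + 1) with SE in ATF1/CREB1/CREM-KO for each of the 9 genes (red, position 0) and up to 3 neighbours on each side with a mean of at least 1 TPM (grey), ordered along the chromosome; a missing grey point is a neighbour that was under 1 TPM in this comparison. The red point lies below every neighbour in all panels except that of Tpt1, where Gpalpp1 at -1.21 is lower.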

How the data were processed

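RNA was sequenced from 22 libraries of mpkCCD cells. Depth is not known from these values. The deposited values are TPM, already normalised by the authors to a common total per library; the submitters' processing notes name STAR and RSEM, and their versions, the genome build and the annotation are not given in the sources used here. Values were tested as log2(TPM + 1) with limma 3.58.1 in R 4.3.3 (lmFit, eBayes with a trend), keeping genes that averaged 1 TPM or more in the libraries compared; p-values were adjusted by Benjamini-Hochberg across every tested gene, and a gene was called at an adjusted p under 0.05. Only the groups compared entered a fit. All 9 genes passed the filter in each comparison, through their control level where the knockout was under 1 TPM. The procedure was tested on simulated data.

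The 9 genes and all gene lists were chosen with earlier results of these data known. The genes named were the 9, their relatives and copies, up to 4 called genes per list, called neighbours, and the 3 genes most alike in pattern; the overlapping Gnpda2 and Rhot2, the neighbours of Tpt1 and 4930471M09Rik were named after their values were seen. GENCODE M21 (GRCm38) gave chromosome, biotype and neighbours for 52081 of 55414 genes. Promoter windows are from RefSeq (GRCm38.p6). Alternatives were the use of all 11 control clones, a covariate for run, another pseudocount, no filter, median-ratio scaling, a replicate block and leaving out each library.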

Additional observations from a re-analysis of the deposited data

How the results depend on the processing

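Under every alternative run, all 9 genes stayed below control in ATF1/CREB1-KO (99 of 99 values) and in ATF1/CREB1/CREM-KO (99 of 99). The genes were chosen for low values under these labels and the alternatives reuse the same libraries, so these counts are no separate evidence. Against all 11 control clones the log2 changes of Guf1, Gpam, Tysnd1 and Wdr90 in ATF1/CREB1-KO grew to -3.54, -3.58, -3.30 and -3.17. With a pseudocount of 0.1 TPM those of Guf1, 3830406C13Rik and 1810044D09Rik in ATF1/CREB1/CREM-KO were -6.47, -6.61 and -5.23. In ATF1-KO no alternative called any of the 9, and the sign turned for Guf1 (0.57), Tysnd1 (0.62) and Tpt1 (-0.67) against all 11 control clones. Leaving out 1 library moved the ATF1-KO change of 1810044D09Rik between -0.102 and 0.057, of Gpam between -0.0040 and 0.081, and of Tysnd1 between -0.18 and 0.0026. Rap1b in ATF1/CREB1/CREM-KO turned to 0.081 against all 11 control clones.

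The number of genes called in ATF1/CREB1-KO, 9, was 608 with a covariate for run, 4260 against all 11 control clones, 18 with median-ratio scaling, 0 without the filter, and 0 to 60 when 1 library was left out (0 without knockout replicate 2, 60 without replicate 3). The number in ATF1/CREB1/CREM-KO, 1216, was 137 against all 11 control clones, 710 without the filter and 185 to 3317 when 1 library was left out (185 without control clone 9, 3317 without knockout replicate 1); with median-ratio scaling it was 1291, of which 685 were higher and 606 lower. In ATF1-KO the number stayed 0 except for 1 without control clone 4. Fitting ATF1-KO with a replicate block also called 0 genes; same-numbered libraries had correlations of -0.103 to 0.0843, so the numbers were not taken to pair them. No paired analysis was possible in the other comparisons because their groups share no replicate numbers. The full CRE in place of the core lowered the count of matched genes from 7 to 2. The causes were not tested.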

Other observations

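The genes whose libraries followed the 9 most closely were taken from 13295 genes by Pearson's r over the 22 libraries, on log2(TPM + 1) after subtracting each own-run control mean. These values are a description without a p, since the points share libraries and centring, and the 6 libraries of the compound knockouts set most of the spread. Guf1 and Gpam were among each other's 3 closest genes (r = 0.982). Rmdn3, a mitochondrial outer membrane protein that tethers the endoplasmic reticulum, had r = 0.991 with Guf1 and averaged 32.9% of control in ATF1/CREB1-KO and 11.3% in ATF1/CREB1/CREM-KO. Nubpl, an assembly factor of respiratory complex I, had r = 0.987 with Guf1 and averaged 26.5% and 2.13%. Closest to Gpam was Pigg, an enzyme of GPI anchor synthesis (r = 0.983), at 33.0% and 16.0%. Cisd2 was closest to Mogs (r = 0.978), the first glucosidase of N-glycan trimming, and Wdr90 to Ptrh2 (r = 0.980), a mitochondrial peptidyl-tRNA hydrolase that was at 78.9% and 74.4% of control and so shared the order of libraries more than the size of the difference.

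Stat6, a cytokine-activated transcription factor, was closest to both Tysnd1 (r = 0.966) and 1810044D09Rik (r = 0.975), at 45.3% and 34.5% of control. Timm44, a subunit of the mitochondrial import motor, was closest to 3830406C13Rik (r = 0.945), at 84.1% and 51.0%. Mia3, a protein of collagen export from the endoplasmic reticulum, was closest to Tpt1 (r = 0.930), and Gm16062 to Tln2 (r = 0.899), the loosest of these matches. Among the 36 pairs of the 9 genes, r ran from 0.440 (3830406C13Rik with Tln2) to 0.982, with a median of 0.874. The 9 were chosen for low values in the compound knockouts, so these r values, that of Guf1 with Gpam included, are no separate evidence. Of the 22 most alike genes outside the 9, 17 had a RefSeq promoter window, and 14 of these held a CRE core, 4 of them a full CRE (Gm16062, Mrm3, Nubpl and Snapc5). In Nubpl it lay 27 bases before the start, in Snapc5 21 and in Mrm3 20. Over the 9495 genes with a window and a mean of at least 1 TPM, 36.5% held a core and 3.70% a full CRE. The 17 were picked from these same libraries for following the 9, so they are no separate evidence.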
